A study of Mus musculus with 4 samples.

Results

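The small leucine-rich proteoglycans (SLRPs) examined here were 10 genes of bone and connective tissue matrix, namely Dcn, Bgn, Aspn, Fmod, Lum, Prelp, Kera, Omd, Ogn and Podn. They were taken from the deposited count table by gene symbol alone, 10 of 44788 genes. The rule used no measured value, but the family was picked with earlier results of these data known. The table came from RNA sequencing of mouse bone marrow stromal cells (C57BL/6J, passage 2), 2 libraries per group. The Cre libraries were from Setd2 fl/fl cells infected with a lentivirus for Cre recombinase, labelled as Setd2 knockout. The GFP libraries were from Setd2 fl/fl cells infected with a lentivirus for GFP, labelled as wild-type control. Both groups carry the floxed allele, and puromycin was given at 2 µg/ml for 4 days. The labels give GFP as the only control, so loss of Setd2 and the presence of Cre cannot be told apart here. Nothing in the labels says whether replicates were separate animals or cultures. If they were not, the p-values measure technical spread alone.

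SLRPs are secreted proteins built around a core of leucine-rich repeats, and many carry chondroitin, dermatan or keratan sulfate chains. They bind collagen and set fibril diameter and spacing, and several also hold growth factors of the TGF-beta family in the matrix. In bone, biglycan and decorin are matrix proteoglycans of osteoblasts and their precursors, osteomodulin is a keratan sulfate proteoglycan of mineralized matrix, and asporin and osteoglycin occur in bone, tendon and other connective tissues. The family is grouped into classes by sequence and gene structure. Bgn, Dcn and Aspn belong to class I, Fmod, Lum, Prelp, Kera and Omd to class II, Ogn to class III and Podn to class V.

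The libraries held between 12371994 and 14315903 counts. Setd2, which encodes the methyltransferase of histone H3 lysine 36 trimethylation, had 551 and 468 counts in the Cre libraries, against 1400 and 1250 counts in the GFP libraries (log2 fold change -1.60, SE 0.08, edgeR quasi-likelihood test, Benjamini-Hochberg adjusted p = 3.65e-15). Ribosomal and other abundant noncoding RNA genes, counted with the protein-coding gene Lars2, took 1.56% and 1.43% of the counts in the Cre libraries. They took 2.36% and 8.51% in the GFP libraries, so GFP replicate 2 stands apart. Squared differences between 2 libraries, scaled by total counts, were set against counting noise for genes with over 200 counts in the pair. Their median was 1.78 times that noise for the Cre pair and 3.85 times for the GFP pair. Between a Cre and a GFP library it was 3.43 (both replicate 1) to 5.85 times. TMM scaling, used for the values below, was not applied to these medians. Its factors were 1.011 and 1.012 for the Cre libraries and 1.028 and 0.951 for the GFP libraries. Such offsets enter the medians, and their part was not tested. With GFP replicate 2 left out, edgeR called 0 of 15034 genes at an adjusted p of 0.05 (unadjusted p under 0.05 in 2197), and with GFP replicate 1 left out it called 12. No gene described here as risen or fallen keeps its call without either GFP library, apart from Setd2 without GFP replicate 1.

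All 10 stromal cell markers had a mean of at least 1 CPM (depth-normalised read counts, with TMM scaling). Of these, 3 rose, Thy1 (log2 fold change 0.61, adjusted p = 0.00471), Col1a1 (0.52) and Col1a2 (0.29). Cxcl12 fell (-0.28, adjusted p = 0.00513). The other markers of this list, Pdgfra (-0.08), Pdgfrb (-0.05), Prrx1 (-0.13), Lepr (-0.18), Nt5e (-0.18) and Eng (-0.10), lay below 0 and were not called. Thy1 was not called in DESeq2 (adjusted p = 0.126), nor Cxcl12 with scaling by library size alone (adjusted p = 0.0976). Cxcl12 also lost its call without Cre replicate 1 (-0.25) and without Cre replicate 2 (-0.31), and Col1a2 without Cre replicate 2 (0.25). All 7 macrophage markers also had a mean of at least 1 CPM. They summed to 2224 and 2216 CPM in the Cre libraries and to 1890 and 1945 CPM in the GFP libraries. The macrophage genes Lyz2 (log2 fold change 0.27) and Cd68 (0.30) rose and Adgre1 (-0.30) fell. Without Cre replicate 1 none of these 3 was called, and without Cre replicate 2 only Cd68 was. Of 6 osteoblast markers, 5 reached 1 CPM, and 2 of these rose, the osteoblast transcription factor gene Sp7 (0.52, adjusted p = 0.00655) and the bone sialoprotein gene Ibsp (1.10, adjusted p = 0.00994). Neither was called in DESeq2 (adjusted p = 0.0932 for Sp7 and 0.209 for Ibsp) or without Cre replicate 2 (0.0590 and 0.221). In edgeR, Spp1 (-0.10, adjusted p = 0.391), Runx2 (0.03, adjusted p = 0.877) and Alpl (0.05, adjusted p = 0.789) did not pass. The 6 osteoblast markers summed to 1146 and 1155 CPM in the Cre libraries, most of it Spp1. In the GFP libraries they summed to 1205 and 1219 CPM. Bglap, the late osteoblast gene of osteocalcin, had 2 and 2 counts with Cre and 2 and 1 with GFP. The 5 chondrocyte markers summed to 441 and 469 CPM in the Cre libraries and to 534 and 598 CPM in the GFP libraries, nearly all of it Col2a1, which fell (-0.31, adjusted p = 0.00298, and 0.159 without Cre replicate 1). Sox9 (-0.34, adjusted p = 0.151) and Matn3 (-0.84, adjusted p = 0.136) did not pass, and Acan had at most 2 counts per library. The tenocyte, adipocyte and endothelial lists had 0 calls among 10 tested genes in edgeR and in DESeq2, with 2 at an unadjusted p under 0.05 in edgeR. The part of any of these cell types in the proteoglycan values was not tested. In such bulk libraries, fewer cells of a type and less RNA per cell cannot be told apart.

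The family covered the whole range of expression. Bgn, the gene of biglycan, was among the most abundant genes of these cells. Dcn, the gene of its closest relative decorin, was low, at 53 to 84 counts per library. The class II genes Lum (lumican) and Kera (keratocan) were at or near 0. To compare genes, levels were set per length, as CPM per kb of the longest GENCODE M21 transcript. Bgn stood at 1557 and 1588 CPM per kb in the Cre libraries and at 1441 and 1469 CPM per kb in the GFP libraries. It ranked 15th of 21565 genes with a known length and at least 1 count. Its share of the summed SLRP level per kb was 91.7% and 92.1% with Cre and 90.5% and 91.7% with GFP.

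Ogn (osteoglycin) and Fmod (fibromodulin) came next, with means of 62.1 and 52.7 CPM per kb in the Cre libraries and 70.8 and 46.1 CPM per kb in the GFP libraries. Prelp, which encodes a basic SLRP with a proline- and arginine-rich amino terminus, had means of 15.5 CPM per kb with Cre and 15.2 with GFP. Below these, Aspn, Dcn, Podn (podocan) and Omd had means between 0.738 and 3.78 CPM per kb in the groups. In that order, Aspn stood at 2.64 and 2.28 CPM per kb with Cre and 4.38 and 3.18 with GFP, and the 4 values of Dcn, 3.31 and 3.18 with Cre and 3.07 and 2.57 with GFP, lay within that range. Podn, at 1.66 and 1.74 with Cre and 2.42 and 1.93 with GFP, was below Dcn in every library, and its range overlapped that of Omd, at 0.862 and 0.615 with Cre and 2.03 and 1.36 with GFP. Set per kb of all exon bases of a gene, Dcn moved from rank 6 to rank 8 in the family, while Bgn, Ogn, Fmod and Prelp stayed the first 4. The ratio of Fmod to Ogn per kb was 0.819 and 0.879 in the Cre libraries and 0.602 and 0.710 in the GFP libraries, so Ogn was the more abundant of the pair in all 4 libraries by this measure.

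**Figure D1:**
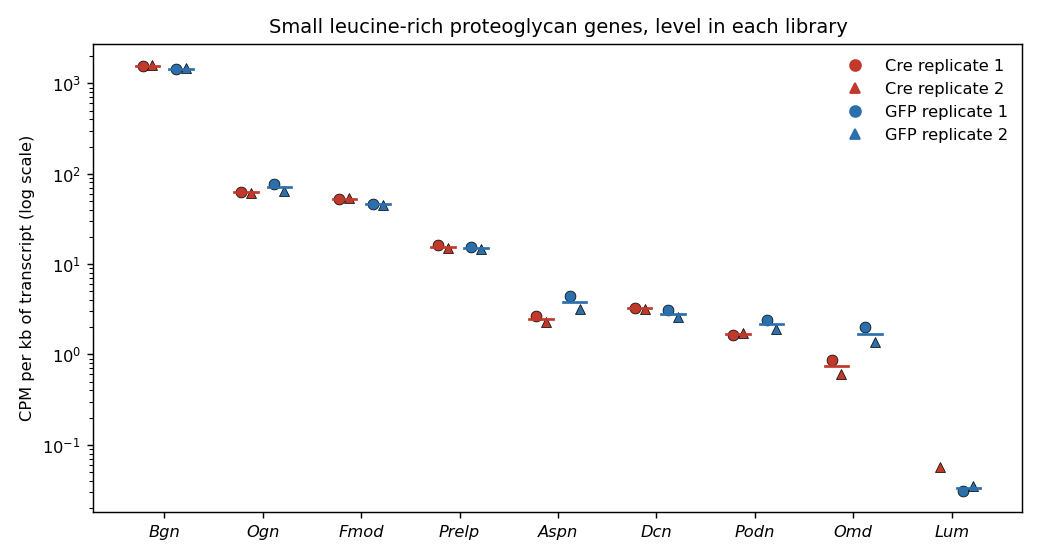
Level of 9 SLRP genes in each library, in CPM per kb of the longest transcript on a log axis, with Cre libraries in red left of GFP libraries in blue and short lines at the group means. Bgn lies far above all others in every library. A library with 0 counts is not drawn, which applies to Lum in Cre replicate 1 and to Kera, left out of the plot.

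Lum had 0 and 2 counts in the Cre libraries and 1 and 1 in the GFP libraries, all at or below the floor of 3 counts, which corresponds to 0.207 to 0.255 CPM. Kera had 0 counts in every library, which allows up to 3 counts per library by that floor. Floors and intervals cover counting error only, since the reads carry no molecular identifiers. Neither gene passed the count filter, so 8 of the 10 members were tested, and no fold is given for these 2. Lum, Kera and Dcn lie next to each other on chromosome 10, within 134 kb, and they and their neighbour Epyc, the gene of the cartilage SLRP epiphycan with 0 counts throughout, gave at most 84 counts per library.

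Between the groups, the genes of osteomodulin and asporin fell in the Cre libraries and no member rose. At an unadjusted p under 0.05 there were 5 members, with Fmod higher and Ogn and Podn lower beside Omd and Aspn, where 20.9% of all tested genes were under that value. The level with Cre was 0.432 times that with GFP for Omd and 0.648 times for Aspn. These 2 are 2 of 8 tested members, where 6.97% of the 14483 tested genes were called in either direction, 3.22% lower and 3.74% higher (467 and 542 genes, or 183 and 347 when scaled by library size alone). The median log2 fold change of the 8 was -0.08, against -0.0045 over all tested genes, with 4 values above 0 and 4 below. Cre and GFP values did not overlap for 7 of the 8 members, with 3 higher and 4 lower, but this held for 50.0% of all tested genes (24.5% higher, 25.5% lower).

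Among the class I genes, Aspn had 89 and 77 counts in the Cre libraries, or 6.16 and 5.32 CPM, and 134 and 87 counts in the GFP libraries, or 10.2 and 7.41 CPM. Both Cre libraries were below both GFP libraries, and GFP replicate 1 stood well above GFP replicate 2. The log2 fold change was -0.63 ± 0.17 (SE, adjusted p = 0.0173). Asporin binds collagen and TGF-beta and, unlike biglycan and decorin, carries no glycosaminoglycan chain. The call was lost without Cre replicate 2 (-0.52, adjusted p = 0.142), with scaling by library size alone (adjusted p = 0.0838) and in DESeq2 (adjusted p = 0.257). The value was -0.37 when GFP replicate 1 was left out (adjusted p = 0.405).

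Bgn had 54434 and 55566 counts with Cre, or 3767 and 3840 CPM, and 45799 and 41735 counts with GFP, or 3486 and 3554 CPM. Biglycan carries chondroitin or dermatan sulfate chains and, once released from the matrix, acts on Toll-like receptors. Both Cre values lay above both GFP values, but the difference was small, 0.11 ± 0.06 on the log2 scale (SE), and did not pass (adjusted p = 0.276). Dcn, with 5.81 and 5.60 CPM in the Cre libraries and 5.40 and 4.51 CPM in the GFP libraries, did not pass either (0.20, standard error 0.18, adjusted p = 0.579). The value for Dcn was 0.34 without GFP replicate 1 and 0.080 without GFP replicate 2.

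Among the class II genes, Omd had 28 and 20 counts with Cre, or 1.94 and 1.38 CPM, and 60 and 36 counts with GFP, or 4.57 and 3.07 CPM. Its mean was 1.66 ± 0.393 CPM in the Cre libraries and 3.82 ± 1.06 CPM in the GFP libraries (SD, n = 2 each), and its log2 fold change was -1.21 ± 0.26 (SE, adjusted p = 0.00348). The exact 95% Poisson intervals, which cover counting error only, were 1.29 to 2.80 and 0.844 to 2.13 CPM in the Cre libraries and 3.48 to 5.88 and 2.15 to 4.24 CPM in the GFP libraries. The intervals of Cre replicate 1 and GFP replicate 2 overlap, and the lowest GFP value is 1.13 CPM above the highest Cre value. Omd was not called in DESeq2 (adjusted p = 0.117) or without GFP replicate 1 (-0.88, adjusted p = 0.324) or GFP replicate 2 (-1.45, adjusted p = 0.245), and it kept its call without Cre replicate 1 (adjusted p = 0.00765) and without Cre replicate 2 (adjusted p = 0.0483).

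Fmod, whose product binds type I collagen and guides its crosslinking, had 162 and 166 CPM in the Cre libraries and 146 and 142 CPM in the GFP libraries. The groups did not overlap and each pair of replicates was close. The log2 fold change of 0.19 ± 0.06 (SE) missed the threshold (adjusted p = 0.0579). With robust dispersion estimates the adjusted p was 0.0346, and with a filter of 1 CPM in 2 libraries it was 0.0448. Prelp had 58.1 and 54.1 CPM with Cre and 56.5 and 53.3 CPM with GFP, overlapping values with a log2 fold change of 0.03 (standard error 0.07, adjusted p = 0.873). An antisense gene, Gm15851, covers 9.68% of the exon bases of Prelp. The library kit keeps no strand, so reads of Gm15851 could be counted with Prelp. How such reads were counted is not given.

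Ogn, of class III, had 163 and 156 CPM in the Cre libraries and 199 and 164 CPM in the GFP libraries. Cre replicate 1 was within 1.31 CPM of GFP replicate 2, so the separation rests on GFP replicate 1. The log2 fold change was -0.19 ± 0.07 (SE) and did not pass (adjusted p = 0.114), and it was -0.04 without GFP replicate 1 and -0.32 without GFP replicate 2. With robust dispersion estimates Ogn had an adjusted p of 0.0411. Podn, the class V gene, had 5.26 and 5.53 CPM with Cre and 7.69 and 6.13 CPM with GFP. Its log2 fold change of -0.36 ± 0.17 (SE) did not pass (adjusted p = 0.206), and it was -0.18 without GFP replicate 1 and -0.51 without GFP replicate 2. In 7 of the 8 tested members GFP replicate 1 was above GFP replicate 2, with ratios up to 1.49 for Omd and 1.38 for Aspn, and Bgn was the exception at 0.981.

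**Figure D2:**
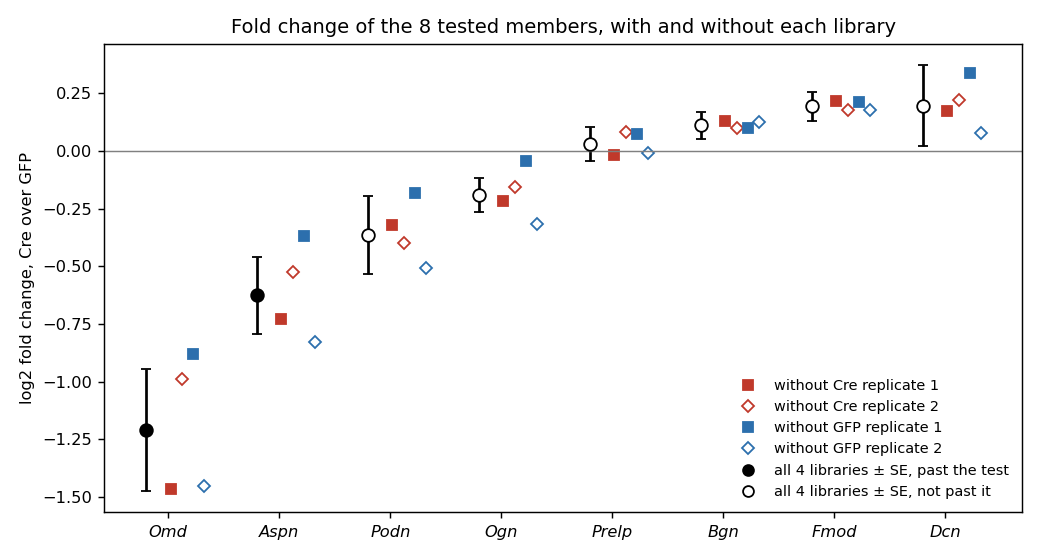
Log2 fold change, Cre over GFP, of the 8 tested SLRP genes in all 4 libraries (circles with standard error, filled where past the test) and with each library left out (squares and diamonds). Omd and Aspn are the filled circles, and for Omd, Aspn, Podn and Ogn the value without GFP replicate 1 is nearest to 0.

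The 2 genes that fell lie side by side. Aspn, Omd and Ogn stand in a row on the forward strand of chromosome 13 (GRCm38), Aspn from 49544443 to 49567565, Omd from 49582462 to 49592822 and Ogn from 49608046 to 49624501 in GENCODE M21. Gaps of 14897 and 15224 bases separate them. Ecm2, a related leucine-rich repeat gene that ends 11654 bases before Aspn, had 1.94 and 1.31 CPM in the Cre libraries and 2.82 and 1.79 CPM in the GFP libraries, overlapping values (log2 fold change -0.52, standard error 0.30, adjusted p = 0.338). With 1 library left out, Ecm2 lay between -0.81 (without Cre replicate 1) and -0.14 (without GFP replicate 1). Nol8, a nucleolar protein gene 28577 bases beyond Ogn, did not pass (-0.11, adjusted p = 0.522), with -0.22 without Cre replicate 1 and -0.0017 without Cre replicate 2. The 3 SLRP genes of this cluster all had values below 0, with only Aspn and Omd past the test. Of the 5 other tested members, on chromosomes 1, 4, 10 and X, Podn was also below 0, at -0.36 and so further than Ogn at -0.19, and none passed.

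All 3 cluster genes lie inside Cenpp, a centromere protein gene on the opposite strand. Exons of Cenpp share 7 bases with exons of Aspn (0.297%) and 0 with those of Omd and Ogn. Without strand information, unspliced reads of Cenpp that fall on their exons could be counted with them. Cenpp had 2.42 and 2.28 CPM with Cre and 3.04 and 3.15 CPM with GFP (log2 fold change -0.40, standard error 0.24, adjusted p = 0.359), a count in the same range as that of Omd, and its part in the Omd value was not tested. Relative to Ogn in the same library, Omd had 0.0119 and 0.00888 times as many counts in the Cre libraries and 0.0229 and 0.0187 times as many in the GFP libraries, lower in both Cre libraries than in either GFP library. This ratio was not tested.

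**Figure D3:**
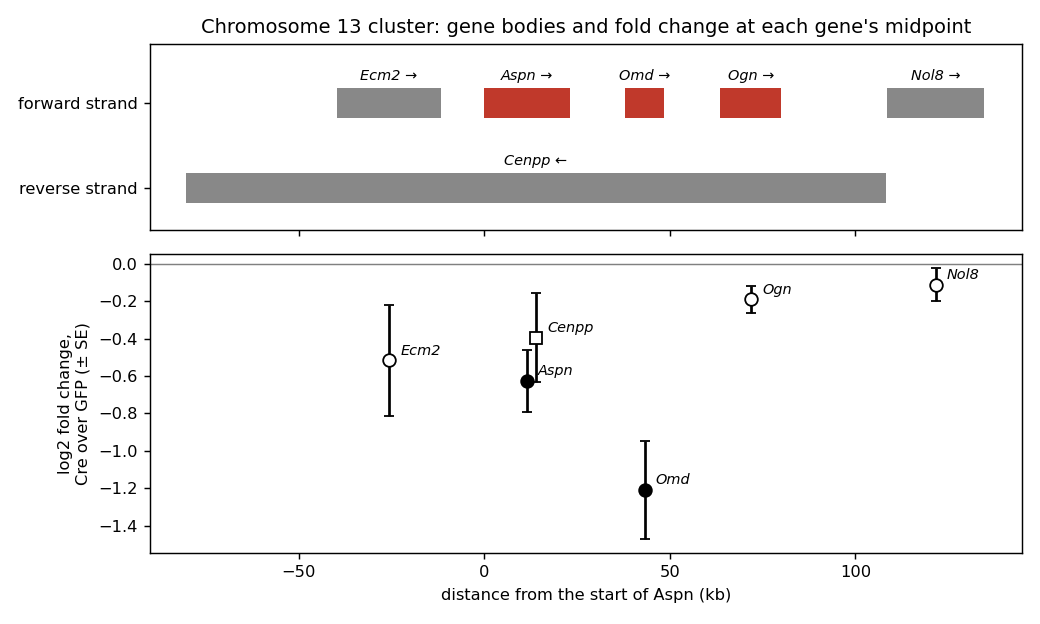
Upper panel, gene bodies of the chromosome 13 cluster by distance in kb from the start of Aspn, with SLRP members in red, other genes in grey and arrows for strand. Lower panel, log2 fold change, Cre over GFP, with standard error at the midpoint of each gene, filled where past the test. The largest fall is at Omd, and the members on both sides of it lie nearer to 0.

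The stretches upstream of these genes are shown because the cluster genes are neighbours with unequal values, and that of Bgn because it is the most abundant member. RefSeq promoters (GRCm38.p6) were found for 8 of the 10 members, Dcn and Lum being the others. Each line gives the 250 bases before the RefSeq start on the forward strand, at chr13:49544193-49544442 for Aspn, chr13:49582212-49582461 for Omd, chr13:49607765-49608014 for Ogn and chrX:73483351-73483600 for Bgn. Capitals mark matches, on either strand, to the TATA box motif spelled TATAAA, the GC box of Sp1 spelled GGGCGG, the core of RUNX sites spelled TGTGGT and the AP-1 site spelled TGANTCA. The CArG box was searched as well, and E-boxes (CANNTG) were counted but not capitalized.
Aspn: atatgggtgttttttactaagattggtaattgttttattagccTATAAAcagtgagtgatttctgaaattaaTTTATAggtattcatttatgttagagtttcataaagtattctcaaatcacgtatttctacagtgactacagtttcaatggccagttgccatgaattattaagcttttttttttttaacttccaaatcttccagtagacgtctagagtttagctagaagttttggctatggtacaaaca
Omd: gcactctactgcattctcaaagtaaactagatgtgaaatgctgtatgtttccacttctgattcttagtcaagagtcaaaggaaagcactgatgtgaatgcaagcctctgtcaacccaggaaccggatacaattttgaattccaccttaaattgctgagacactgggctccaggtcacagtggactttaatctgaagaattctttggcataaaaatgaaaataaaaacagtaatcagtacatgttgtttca
Ogn: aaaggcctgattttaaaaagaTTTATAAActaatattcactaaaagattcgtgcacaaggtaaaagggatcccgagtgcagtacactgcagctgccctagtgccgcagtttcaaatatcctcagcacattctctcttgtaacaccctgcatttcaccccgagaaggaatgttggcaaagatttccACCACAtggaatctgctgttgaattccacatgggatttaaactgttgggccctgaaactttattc
Bgn: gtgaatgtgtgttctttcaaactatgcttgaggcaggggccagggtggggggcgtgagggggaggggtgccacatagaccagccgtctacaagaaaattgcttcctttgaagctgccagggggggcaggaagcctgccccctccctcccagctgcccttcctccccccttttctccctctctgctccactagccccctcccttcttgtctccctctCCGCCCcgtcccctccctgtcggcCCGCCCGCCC

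Omd had no match to any of these 6 motifs in this window. Aspn and Ogn each had 2 matches to TATAAA, which 12.4% of 32851 RefSeq promoters of this length hold, but they began 207 and 178 bases before the start in Aspn and 229 and 227 bases before it in Ogn, where they overlap each other. Ogn also held 1 match to the RUNX core, found in 14.0% of promoters, 65 bases before its start. Bgn had 3 matches to the GC box within the last 34 bases, a pair of them overlapping, and 32.7% of promoters hold at least 1. AP-1 (6.75% of promoters) and the CArG box (1.47%) were found in none of the 4, and E-boxes (66.2%) numbered 1 in Aspn, 3 in Ogn, 1 in Bgn and 0 in Omd. GC content was 30.0% for Aspn, 38.4% for Omd and 42.0% for Ogn, below the median of 52.4% over all promoters, and 64.4% for Bgn. These matches describe the letters only.

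The genes whose log2 CPM, centred over the 4 libraries, lay nearest to Omd among 13754 genes included Hs3st1, a heparan sulfate sulfotransferase gene (distance 0.184), and Bsn, the gene of the presynaptic protein bassoon (0.352). Hs3st1 had 2.01 and 1.31 CPM with Cre and 3.96 and 2.98 CPM with GFP. Of the other members, Aspn was nearest, at a distance of 0.627 and rank 73, followed by Podn at rank 550 and Ogn at rank 1282. With 4 libraries that share their depth and scaling, this is a description of these values only.

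Outside the 10 members, SLRP-like genes and the genes that build, cut and bind these proteins were read from the same fit, in lists beside the 6.97% called and the median of -0.0045 over all tested genes. Of 7 other SLRP and SLRP-like genes, 4 were tested and 1 rose. This was Podnl1, the podocan-like gene of the same class as Podn, with 70.9 and 67.3 CPM in the Cre libraries and 53.4 and 55.9 CPM in the GFP libraries (log2 fold change 0.34, standard error 0.07, adjusted p = 0.00314). Its value lay on the other side of 0 from that of Podn. Podnl1 did not pass without Cre replicate 1 (adjusted p = 0.0797). Tsku, which encodes the secreted signalling modulator tsukushi, did not pass (-0.08, adjusted p = 0.614), nor did Optc, the opticin gene 2305 bases from Prelp (0.04, adjusted p = 0.956).

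Of the enzymes of the sugar chains and of tyrosine sulfation, 39 genes in 4 lists, 35 were tested, 1 rose and 1 fell, with a median of -0.02. The called share, 5.71%, is near that of all tested genes. Chst12, a chondroitin 4-sulfotransferase gene, rose, with 127 and 131 CPM in the Cre libraries and 103 and 103 CPM in the GFP libraries (0.32, standard error 0.06, adjusted p = 0.00144). Csgalnact1, which starts chondroitin chains, fell to 27.1 and 24.6 CPM with Cre, against 37.4 and 31.7 CPM with GFP (-0.42, standard error 0.09, adjusted p = 0.00436). Csgalnact1 was not called without Cre replicate 2 (adjusted p = 0.0940), in DESeq2 (adjusted p = 0.0808) or with scaling by library size alone (adjusted p = 0.0616). The 7 linker enzymes, 7 tested keratan sulfate enzymes and 7 genes of tyrosine sulfation and sulfate supply had 0 calls in edgeR and in DESeq2, with 2 of them at an unadjusted p under 0.05 in edgeR. With robust dispersion estimates, and with a filter of 1 CPM in 2 libraries, 1 linker enzyme was called higher.

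The list of proteases that trim SLRP propeptides or cleave the core proteins, which also holds the procollagen C-proteinase enhancers Pcolce and Pcolce2, had 3 rises and 3 falls among 12 tested genes and a median of 0.06. One of the rises was that of Pcolce2 (0.31, adjusted p = 0.0474), which was not called in DESeq2 (adjusted p = 0.357) or with either Cre library left out. Scaled by library size alone, the list had 1 rise and 2 falls. Mmp9 fell (-0.46, adjusted p = 0.0329), with 15.2 and 14.0 CPM in the Cre libraries and 16.1 and 24.3 CPM in the GFP libraries. Bmp1, the procollagen C-proteinase that also removes the propeptide of biglycan, had 437 and 466 CPM in the Cre libraries and 391 and 384 CPM in the GFP libraries (0.22, adjusted p = 0.0305). Its relative Tll1 fell (-0.40, adjusted p = 0.00206). Without Cre replicate 1 there were 3 calls in this list, and without Cre replicate 2 only Mmp12 was called. The macrophage elastase gene Mmp12 rose (0.78, adjusted p = 7.79e-10) and the aggrecanase gene Adamts5 fell (-0.33, adjusted p = 0.00189). Bmp1 was not called without Cre replicate 1 (adjusted p = 0.117) or Cre replicate 2 (adjusted p = 0.490), or with scaling by library size alone (adjusted p = 0.0752), and Adamts5 (adjusted p = 0.146) and Tll1 (adjusted p = 0.0629) were not called without Cre replicate 2.

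Of 13 listed genes of fibrillar and other collagens, among them types VI, XII and XIV, 6 rose and 2 fell, with a median of 0.12. Col1a1, the main collagen chain gene of bone, had 9641 and 10160 CPM in the Cre libraries and 6881 and 6910 CPM in the GFP libraries (0.52, standard error 0.06, adjusted p = 1.39e-07). The 8 calls became 5 without Cre replicate 1 and 5 without Cre replicate 2. Col6a3 (0.48) and Col3a1 (0.33) rose, and the genes that fell were the cartilage collagen genes Col11a1 (-0.39) and Col2a1 (-0.31). Set against Bgn and Fmod, which bind type I collagen fibrils, the log2 fold change of Col1a1 was 0.52, against 0.11 for Bgn and 0.19 for Fmod. Of 18 tested receptors and growth factors that SLRPs bind, Tgfb2 (0.39, adjusted p = 1.45e-04) and Tgfb1 (0.26, adjusted p = 0.0396) rose and Tgfb3 (-0.20, adjusted p = 0.0409) fell, and the median was 0.03. Antisense or overlapping genes cover 12.4% of the exon bases of Tgfb3, whose count is uncertain. Tgfb1 was not called in DESeq2 (adjusted p = 0.231), and both Tgfb1 (adjusted p = 0.0578) and Tgfb3 (adjusted p = 0.259) were not called with scaling by library size alone, nor with any single library left out. Among the receptors of soluble biglycan, Tlr2 (0.26, adjusted p = 0.109) and Tlr4 (0.01, adjusted p = 0.977) did not pass.

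**Figure D4:**
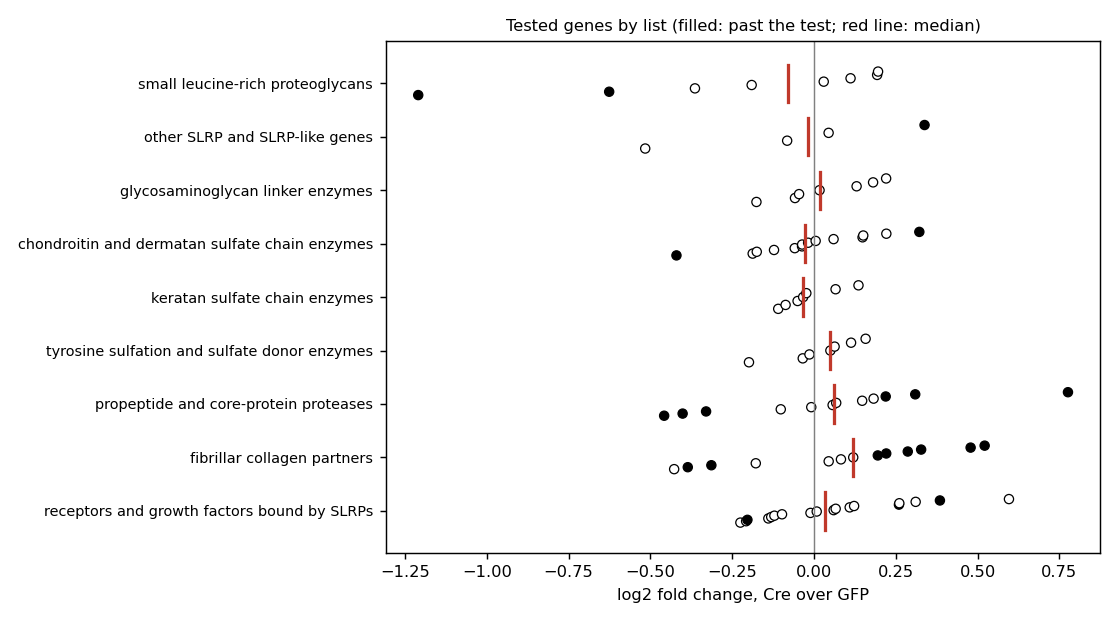
Log2 fold change, Cre over GFP, of every tested gene in each list, with 1 point per gene, filled where past the test, and a red line at the median. The medians of the sugar chain enzyme lists lie close to 0, and the collagen list has 6 filled points to the right and 2 to the left.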

How the data were processed

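RNA (1 µg per library) was sequenced after preparation with a TruSeq RNA kit, per the labels' protocols; this kit does not mark strand. The authors deposited raw counts per gene as whole numbers. HISAT2 was the aligner and GRCm38 the genome, per the submitters' processing notes. How reads were counted, on which annotation, and what was done with multi-mapped reads is not given in the sources used here.

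Groups and replicate numbers came from the labels. Counts were tested in R 4.3.3 with edgeR 4.0.16 (filterByExpr with a minimum count of 10 and a minimum total of 15, TMM scaling, quasi-likelihood F-test, group as the only term). P-values were adjusted by Benjamini-Hochberg over 14483 genes, with a threshold of 0.05. Standard errors were derived from the F statistic. The test was checked on simulated data. Alternatives were other scalings and filters, DESeq2 1.42.0, limma-voom (limma 3.58.1), robust dispersion, a replicate block and a stricter threshold. Others were removal of 36 abundant noncoding RNA genes (the protein-coding gene Lars2 counted with them) and each library left out. Where this leaves 1 library in a group, its spread is taken from the other pair.

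The members and lists were chosen with earlier results of these data known. All 10 members were named. Also named were up to 4 called genes per list with a mean of at least 1 CPM, by smallest p, the nearest protein-coding genes on each side of members, genes whose exons overlap them, and the 3 genes nearest to the called member with the largest fold change, 1 of which is not reported here. Tsku, Tlr2, Tlr4, Pcolce, Pcolce2, Mmp9, Col2a1 and the other marker genes named were chosen after their values were seen. All 92 list entries were found, 3 of them under older symbols.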

Additional observations from a re-analysis of the deposited data

How the results depend on the processing

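For Cre over GFP, 1009 genes were called, and 530 with scaling by library size alone, 376 in DESeq2, 30 with no low-count filter and 477 at an adjusted p of 0.01. Leaving out single libraries gave between 0 and 516. Of the members, 2 were called, 1 with scaling by library size alone (Omd), 1 at an adjusted p of 0.01 (Omd), and 4 with robust dispersion (Omd, Aspn, Ogn and Fmod). DESeq2 and edgeR with no low-count filter called 0 members, with 5 and 4 at an unadjusted p under 0.05. Leaving out single libraries gave between 0 and 2 called members. The cause was not tested. Calls lost with 1 replicate left in a group do not show equal levels. Median-of-ratios factors, limma-voom, removal of abundant noncoding RNA genes and the replicate block each called the same 2 members. A filter of 1 CPM in 2 libraries called 3 members, Omd and Aspn lower and Fmod higher. In the labels, samples with the same replicate number share only that number. The correlation of their deviations was -0.04 over 10900 genes. It rests on 1 difference per group, so it cannot show whether these samples were paired. The replicate block gave 829 called genes. Among the named genes followed through the alternatives, it ended the calls of Bmp1 (adjusted p = 0.0587), Pcolce2 (adjusted p = 0.0611) and Tgfb3 (adjusted p = 0.0758). That left 1 rise and 3 falls in the protease list. Of the members, Prelp alone turned direction, with log2 fold changes between -0.016 and 0.081 over the fits that left out 1 library (below 0 without Cre replicate 1 and without GFP replicate 2). Among the neighbouring genes, none of them called, Btg1 was at 0.016 with scaling by library size alone and between -0.033 and 0.0079 with 1 library left out. The same range was -0.38 to 0.20 for Atp2b3, -0.19 to 0.29 for Optc, -0.11 to 0.043 for Echdc2, -0.0034 to 0.20 for Haus7 and -0.000715 to 0.15 for Scp2. Depth limits Omd, Aspn, Dcn and Podn most, with 20 to 134 counts per library.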

Other observations

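The nearest protein-coding neighbours of the members outside chromosome 13 had no call in edgeR, with 0 of those tested at an adjusted p under 0.05 or an unadjusted p under 0.05. Around Dcn, Lum and Kera, Btg1, an antiproliferation gene, had 62.0 and 63.5 CPM in the Cre libraries and 63.7 and 63.2 CPM in the GFP libraries. Btg2, its relative beside Fmod, had 50.4 and 53.6 CPM with Cre and 49.7 and 49.5 CPM with GFP (log2 fold change 0.07). Haus7, an augmin subunit gene beside Bgn, had a log2 fold change of 0.10, and Atp2b3, a calcium pump gene on the other side of Bgn, one of -0.06. Near Podn, Echdc2 stood at -0.03 and Scp2, the sterol carrier gene overlapped by a long Podn form, at 0.07, while Slc1a7 had 0 counts in every library. The neighbours of Bgn stood at between 0.829 and 24.5 CPM per library.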
